A study of Mus musculus with 2 samples.

Results

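PD-1 and its 2 ligands were followed through single-cell RNA sequencing of immune cells from mouse Colon26 tumours. The genes were taken by name from the processed table, and all 3 were found among its 22836 genes: Cd274, which encodes the ligand PD-L1, Pdcd1lg2, which encodes the ligand PD-L2, and Pdcd1, which encodes the receptor PD-1. Colon26, a colon carcinoma line of BALB/c origin, was grown under the skin of the right flank of wild-type BALB/c mice. The labels call the cells intestinal CD45+ cells, whereas the tissue they name is the subcutaneous tumour. Tumours of 14 mice were taken on day 10, digested with Liberase TM and DNase I, and freed of tumour and dead cells by a Percoll density step. The Control group of 3 mice was untreated according to the series text. The minP1 group of 4 mice received 0.08 µg of minP1, an immunostimulatory peptide derived from the nuclear protein HMGN1, into the peritoneum on day 9. The anti-PD-L1 group of 3 mice received 200 µg of the antibody clone 10F.9G2 by the same route on days 4 and 8. The combination group of 4 mice received both agents on those schedules. Peptide effects were thus read 1 day after a single dose, and the antibody binds the protein product of one of the measured genes, whose protein was not measured here.

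PD-1 is an inhibitory receptor that appears on T cells after their antigen receptor is engaged and stays high on T cells under lasting stimulation. When either ligand binds it, its cytoplasmic tail recruits the phosphatase SHP-2, which dampens signals from the antigen receptor and from CD28. PD-L1 can be made by many cell types and is induced by interferons, above all interferon gamma, with the transcription factor IRF1 among the steps, while PD-L2 is known mainly from dendritic cells and macrophages and is also induced by interleukin 4 signalling. In tumours, PD-L1 on myeloid cells and on tumour cells is the target of antibodies such as the one given here.

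The ligand genes are neighbours. In the GENCODE M21 annotation of GRCm38, Cd274 lies on the forward strand at chr19:29367455-29388095 with 7 exons, and Pdcd1lg2 lies on the same strand at chr19:29410919-29471161 with 6 exons. There were 22823 bases and 0 annotated genes between them. Pdcd1 lies on the reverse strand at chr1:94038305-94052553 with 5 exons. The 250 bases upstream of the RefSeq start of each ligand gene (GRCm38.p6) are shown because the 2 neighbouring genes shared monocytes and macrophages as their main source but ranked the other clusters differently, as described below. They lie at chr19:29367188-29367437 for Cd274 and chr19:29410669-29410918 for Pdcd1lg2, both on the forward strand and written 5′ to 3′, with capitals marking a motif match:
Cd274: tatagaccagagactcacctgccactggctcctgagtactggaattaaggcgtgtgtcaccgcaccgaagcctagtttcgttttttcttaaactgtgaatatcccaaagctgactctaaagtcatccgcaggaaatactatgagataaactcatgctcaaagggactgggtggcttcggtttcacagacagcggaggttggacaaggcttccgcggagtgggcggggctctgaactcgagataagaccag
Pdcd1lg2: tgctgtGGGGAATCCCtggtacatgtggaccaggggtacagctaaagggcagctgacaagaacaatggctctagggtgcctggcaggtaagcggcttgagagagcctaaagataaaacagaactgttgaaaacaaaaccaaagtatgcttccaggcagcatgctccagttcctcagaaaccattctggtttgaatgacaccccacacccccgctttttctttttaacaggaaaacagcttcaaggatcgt
In these windows and in that of Pdcd1, 4 motifs were searched on both strands. The interferon-stimulated response element, GAAANNGAAA, is held by 2.98% of all 32851 mouse promoter windows of the same length, the gamma-activated site, TTCNNNGAA, by 7.02%, the NF-kappa-B motif, GGGNNNNNCC, by 45.8% and the AP-1 motif, TGANTCA, by 6.75%. The one match was GGGGAATCCC, an NF-kappa-B motif from base -244 to -235 of Pdcd1lg2. The Cd274 and Pdcd1 windows held none of these letter strings, which says nothing of sites outside them.

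The deposited table held 8262 cell barcodes, of which 141 were marked as doublets and 6 as having no hashtag. Of the other 8115, 383 had over 25% of their reads in 36 mitochondrial genes and were left out, which left 7732 cells, 466 to 724 per mouse; the series text states 7613 cells after its own quality check. No barcode sequence was shared between mice. Total reads ran from 26007834 to 51230461 per mouse, and the median cell held 39132.5 reads and 2078 genes. These are reads and not molecules: the median nonzero entry was 10 reads, so intervals over reads or cells cover counting error only. Each mouse is 1 value in what follows, and levels are in CPM, the reads of a gene scaled to 1000000 reads of the named cells of that mouse. According to the series text the treatment groups were handled in separate runs, the barcodes carry 1 run tag, and so run and treatment cannot be told apart.

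The cells were grouped into 22 clusters from the other genes of the table, with the 3 rows left out. Names rest on markers, at least 3 of which had to be among the leading 50 genes of a cluster. In all, 18 clusters were called neutrophil-like, NK-like and so on, written below without the suffix, and 4 clusters with 234 cells stayed unnamed. Neutrophils (575 cells) were led by S100a9 and S100a8. The monocyte and macrophage clusters were one led by Ly6i, Cfb and Cxcl9 (931 cells), one led by Arg1 and Mmp12 (912 cells), Chil3 and Thbs1 monocytes (365 cells) and a shallow cluster led by C1qc (270 cells). T cells were split into regulatory (626), CD8 (294), gamma delta (134) and other T cells (687). A pair of clusters carried non-immune markers, one led by Mgp with 493 cells and one led by Krt8 and Epcam with 54 cells, although Ptprc, the gene of CD45, had a read in 60.2% of the first. A doublet score, the share of simulated sums of 2 cells among the 50 nearest neighbours, was over 0.5 in 25.6% of cells and in 72.0% of simulated doublets. It was over 0.5 in 65.6% of the Ly6i cluster, 50.99% of the Arg1 cluster, 36.2% of neutrophils, 7.19% of regulatory T cells and 6.46% of CD8 T cells, so pooled levels without such cells are given for the values that they moved most.

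Cd274 was the most widely read of the 3 genes. It had 92074 reads in 3769 cells, or 48.7% of all cells, and in 38.0% when every cell was thinned to 10000 reads. Monocytes and macrophages, 32.0% of the cells, carried 57.0% of these reads. Neutrophils, 7.44% of the cells with 3.65% of all reads, carried 15.1%. Dendritic cells carried 8.67%, T cells 7.52% and NK cells 6.02%, while non-immune cells carried 2.37%.

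By level, neutrophils stood first with a mean of 737 ± 241 CPM (SD, n = 14 mice), from 423 to 1231. Chil3 monocytes followed at 330 ± 101 CPM, then the Ly6i cluster at 250 ± 56.7 and the Arg1 cluster at 201 ± 52.7. Regulatory T cells at 177 ± 57.7, other T cells at 176 ± 59.0 and the C1qc cluster at 176 ± 92.1 (n = 13) lay close together. Conventional dendritic cells were at 152 ± 77.9 CPM and plasmacytoid dendritic cells at 132 ± 72.1 (n = 12). Without cells of high doublet score their pooled levels were 144 CPM (204 cells) and 60.5 CPM (76 cells). NK cells were at 102 ± 40.1, CD8 T cells at 47.6 ± 34.6 and the Mgp cluster at 31.6 ± 34.4. Cd274 was thus read in every cluster with enough cells in at least 6 mice.

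The gap at the head of this order was larger than the spread between mice. Within a mouse, neutrophils exceeded Chil3 monocytes by 1.15 ± 0.50 on the log2 scale (SD), in 14 of 14 mice (exact sign-flip test, two-sided, p = 0.000122, the smallest that 14 mice can give; 0.00159 adjusted over the 13 neighbouring pairs). The Ly6i cluster exceeded the Arg1 cluster by 0.33 ± 0.30 in 12 of 14 mice (exact sign-flip p = 0.00183, adjusted 0.0119). No other neighbouring pair passed the adjusted test, the nearest being Chil3 monocytes over the Ly6i cluster at 0.37 (exact sign-flip p = 0.0193, adjusted 0.0738). Against each of the 13 other clusters, neutrophils were higher by 1.15 to 4.82 (exact sign-flip test, adjusted p at most 0.00781). Without cells of high doublet score the pooled level in 367 neutrophils was 1432 CPM, and the difference from Chil3 monocytes was 2.00 ± 0.96 in 11 of 11 mice (exact sign-flip test, adjusted p = 0.0117).

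Shares of cells with a read gave another order, since clusters differ in depth. A Cd274 read was found in 82.4% of the Ly6i cluster with a median of 88257 reads per cell, and in 69.4% of neutrophils with a median of 15867. Thinned to 10000 reads, the shares were 63.3% and 69.1%, and that of the Mgp cluster was 10.7%, where stray RNA and the cells' own transcripts cannot be told apart. Of the small clusters, the 38 mature dendritic cells, led by Ccl22 and Fscn1, stood nearest to neutrophils with 598 CPM over all mice together and a Cd274 read in 92.1% of cells (95% exact Clopper-Pearson interval 78.6 to 98.3%). They were too few for a value per mouse. The 54 cells of the Krt8 and Epcam cluster had 8.27 CPM.

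**Figure D1:**
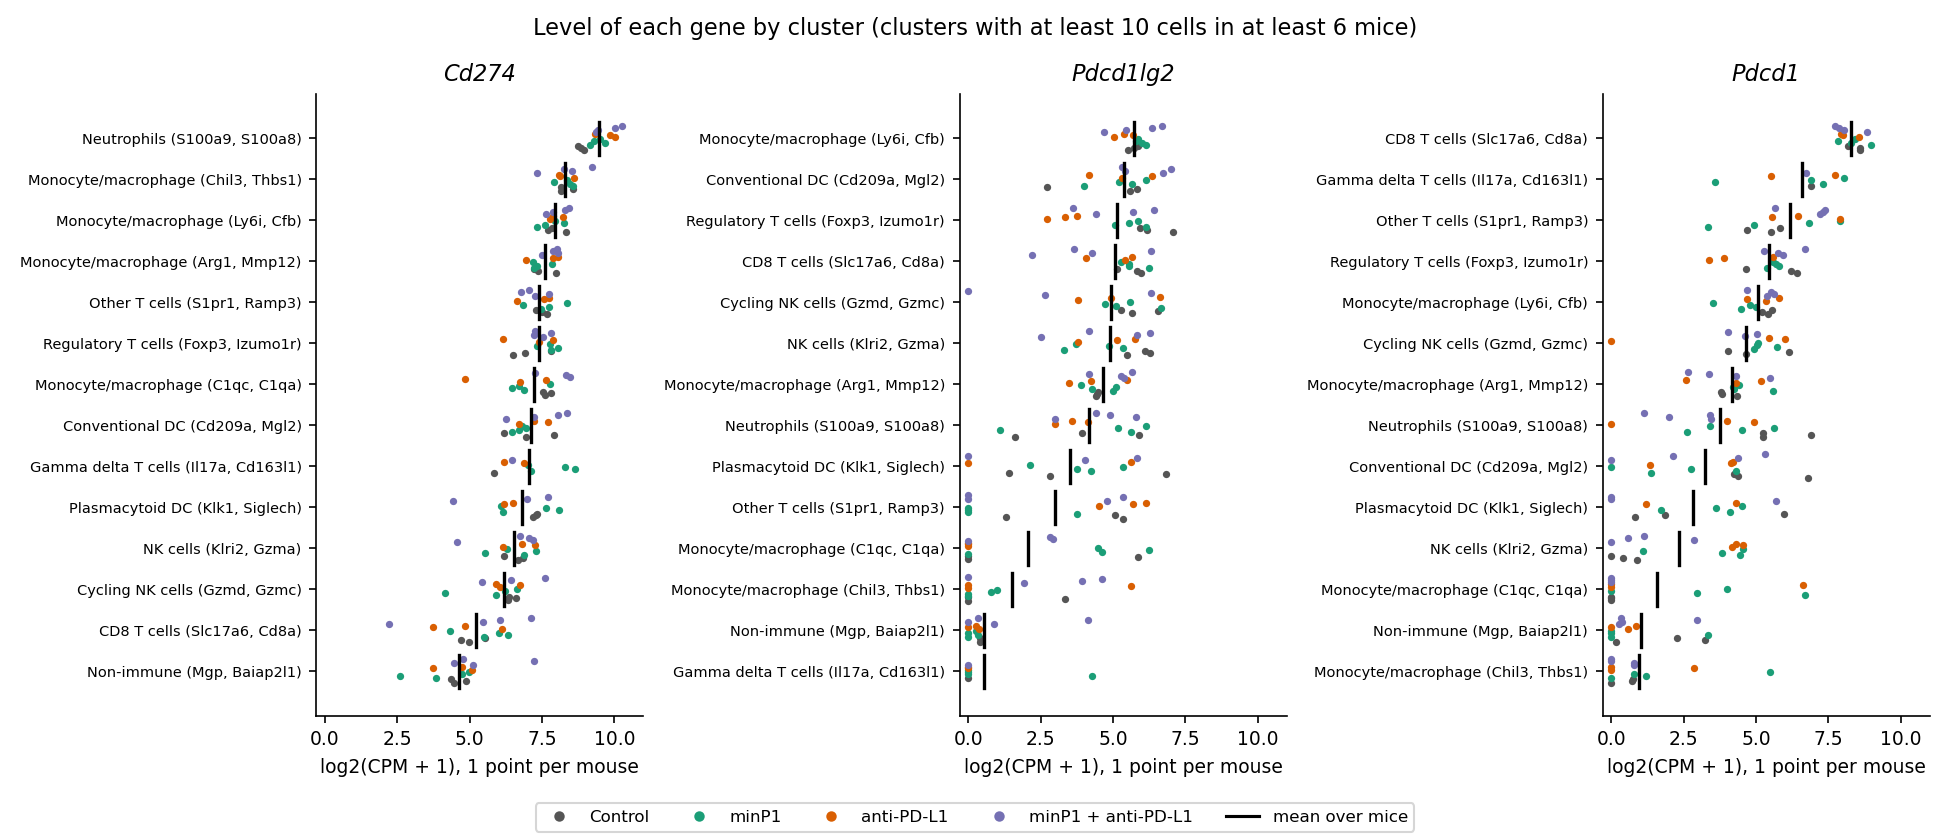
Level of each gene by cluster, as log2(CPM + 1), with 1 point per mouse coloured by treatment group and a black bar for the mean over mice; clusters with at least 10 cells in at least 6 mice are drawn. Neutrophils lead for Cd274 at a mean of 737 CPM and CD8 T cells lead for Pdcd1 at 319 CPM, while the Pdcd1lg2 means form no such step.

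Pdcd1lg2 was read less often, with the same main source but little signal in neutrophils. It had 16658 reads in 938 cells, 12.1% of all cells and 8.67% after thinning. Monocytes and macrophages carried 52.4% of the reads, NK cells 15.998%, dendritic cells 15.1% and T cells 12%, whereas neutrophils carried 2.89%. The highest mean over mice was that of the Ly6i cluster at 55.3 ± 19.9 CPM (SD, n = 14), followed by conventional dendritic cells at 52.1 ± 34.4, regulatory T cells at 47.6 ± 36.3, cycling NK cells at 47.1 ± 35.2 (n = 13), CD8 T cells at 41.2 ± 22.9 and NK cells at 38.1 ± 25.4. The Arg1 cluster and neutrophils had 26.9 ± 12.3 and 26.7 ± 22.7. Chil3 monocytes, second for Cd274, had 7.17 ± 13.9, and the Mgp cluster had 1.40 ± 4.35.

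None of the 13 neighbouring pairs in the Pdcd1lg2 order differed beyond the spread between mice (exact sign-flip test, adjusted p at least 0.765). The Ly6i cluster was higher than 10 of the 13 other clusters. The 3 exceptions were conventional dendritic cells with a difference of 0.34 on the log2 scale, regulatory T cells with 0.60 and cycling NK cells with 0.77 (exact sign-flip test, adjusted p = 0.343, 0.120 and 0.197). The 38 mature dendritic cells again stood apart, with 227 CPM over all mice together and a Pdcd1lg2 read in 42.1% of cells (95% exact interval 26.3 to 59.2%). After thinning, the share of cells with a read was 19.8% in the Ly6i cluster, 14.0% in conventional dendritic cells, 14.8% in cycling NK cells, 16.1% in CD8 T cells and 0.429% in the Mgp cluster. Without cells of high doublet score the pooled level in neutrophils was 6.49 CPM, and those in the Ly6i cluster and in conventional dendritic cells were 62.8 and 43.3. In the Arg1 cluster it was 12.3 CPM, with 24.7 over all its cells, and in plasmacytoid dendritic cells 0.298 CPM (76 cells), with 29.9 over all 170. The antisense gene A930007I19Rik, which overlaps Pdcd1lg2, had 153 reads in all.

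Pdcd1 was read chiefly in T cells. It had 18054 reads in 852 cells, 11.02% of all cells and 8.39% after thinning. T cells carried 51.6% of the reads, and CD8 T cells alone, 3.80% of the cells, carried 37.7%. Over mice, the CD8 share of Pdcd1 reads was 36.0 ± 11.4% (SD, n = 14), from 15 to 58.6%. The mean level in CD8 T cells was 319 ± 90.4 CPM, from 213 to 499.5, with a read in 68.0% of cells. Gamma delta T cells followed at 128 ± 81.9 (n = 8), other T cells at 100.2 ± 77.0, regulatory T cells at 49.6 ± 25.4, the Ly6i cluster at 34.8 ± 12.2 and cycling NK cells at 33.0 ± 19.5. NK cells outside the cycle had 8.91 ± 9.54, Chil3 monocytes 3.88 ± 11.5 and the Mgp cluster 2.16 ± 3.40. None of 92 mast cells and basophils had a read, which allows up to 3.26% of such cells to hold a read at this depth and sets no limit on cells that express the gene.

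CD8 T cells exceeded each of the 13 other clusters, by 1.73 to 7.32 on the log2 scale (exact sign-flip test, adjusted p at most 0.00781). Among neighbours in the order, 0 of 13 pairs passed the adjusted test. The first pair, CD8 over gamma delta T cells, differed by 1.73 ± 1.49 in 8 of 8 mice (exact sign-flip p = 0.00781, adjusted 0.102), and 8 mice cannot give a smaller p. Thinned shares with a Pdcd1 read were 61.3% in CD8 T cells, 21.7% in gamma delta, 10.1% in other and 10.5% in regulatory T cells, 8.81% in cycling NK cells, and 0.429% in the Mgp cluster.

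Pdcd1 reads in myeloid cells moved with signs of mixed cells. Monocytes and macrophages carried 33.1% of all Pdcd1 reads, and 12.5% of these 2478 cells had a read. In the 1333 of them with a low doublet score the share was 3.60% and the pooled level was 9.50 CPM, with 25.6 over all of them. In 13 mice with enough cells, the summed T cell markers in macrophages and monocytes with a Pdcd1 read were 21.2 per 10000 reads and 7.94 in those without, higher in 13 of 13. With the split itself made on thinned reads, a choice made after seeing the data, they were 22.8 and 8.61, higher in 11 of 11 mice. The doublet score was over 0.5 in 84.9% of the former and 41.2% of the latter, and median depth was 146387 and 67776 reads. In the Ly6i cluster the pooled level was 14.96 CPM in cells of low doublet score and 35.1 in all. Chil3 monocytes of low doublet score had a pooled level of 0.568 CPM. In neutrophils of low doublet score, 1 cell of 367 had a Pdcd1 read, a pooled level of 3.34 CPM. The part of mixed cells in the myeloid Pdcd1 reads was not tested further. CD8 T cells of low doublet score had 335 CPM and a read in 67.6% of 275 cells.

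**Figure D2:**
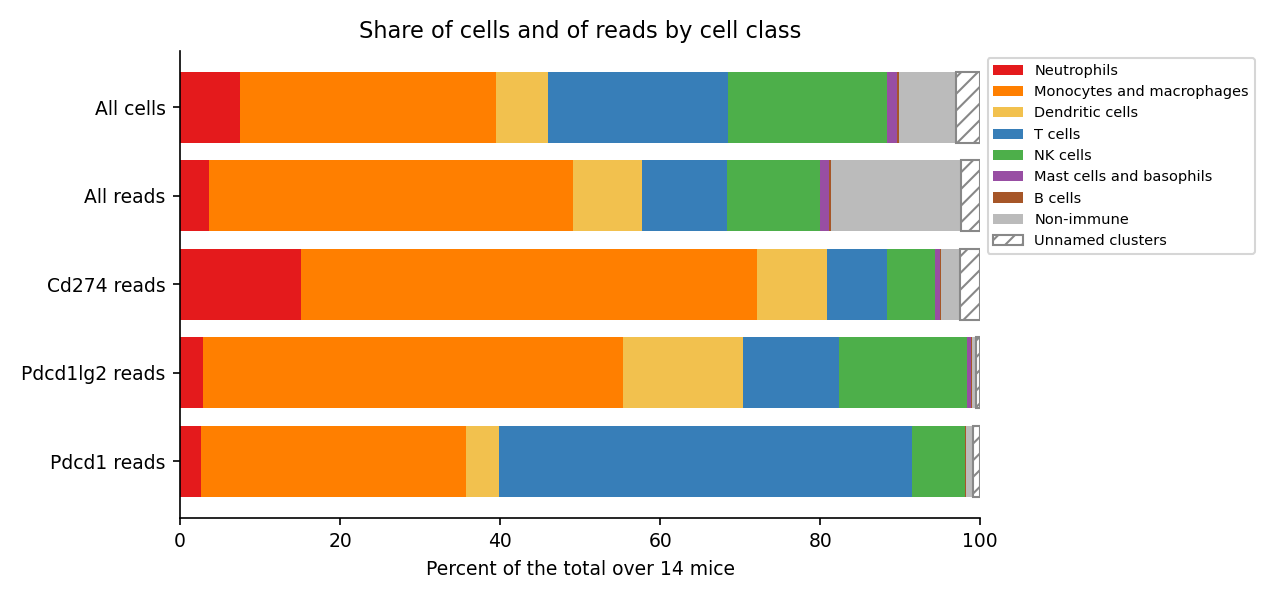
Percent of all cells, of all reads and of the reads of each gene that lie in each cell class, as stacked bars over all mice, with unnamed clusters hatched. Monocytes and macrophages hold 57.0% of Cd274 and 52.4% of Pdcd1lg2 reads, and T cells hold 51.6% of Pdcd1 reads.

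The patterns across clusters were then set beside those of 13323 other genes, with Pearson's r of log2 CPM over the 14 clusters that had at least 10 cells in at least 6 mice. These values share libraries and depth, and are given as a description. Nearest to Cd274 were Neu1, a lysosomal sialidase (r = 0.967), the transcription factor gene Ets2 (0.937), Parp14 (0.936), 1600014C10Rik (0.932) and Trafd1 (0.916). Nearest to Pdcd1 were Gstp3 (0.928), Cd3g, a chain of the T cell receptor complex (0.925), BC021614 (0.924), the chemokine receptor gene Cxcr6 (0.919) and Uhrf2 (0.916). For Pdcd1lg2 they were Ddx43 (0.900), Rnf157 (0.899), Ddt (0.891), Akip1 (0.888) and Rdm1 (0.875). The 2 neighbouring ligand genes had r = 0.19 with each other, and Pdcd1 had r = -0.01 with Cd274 and 0.32 with Pdcd1lg2.

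Within single cells, both ligands were read together in 667 cells, which is 17.7% of cells with a Cd274 read and 71.1% of those with a Pdcd1lg2 read. The shares were 22.4% and 88.9% in monocytes and macrophages, 31.5% and 84.9% in dendritic cells, 8.52% and 82.9% in neutrophils, and 10.5% and 39.9% in T cells. Cells with a Pdcd1lg2 read in the monocyte and macrophage class were deeper, at a median of 135345 reads and 63990 in the others. Every cell of this class was then thinned to 10000 reads and split on the thinned reads. A Cd274 read was found in 64.5% of the cells with a Pdcd1lg2 read and in 54.2% of those without, higher in 10 of 12 mice. The class pools clusters that differed in both genes, and the part of cluster was not tested.

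Monocytes and macrophages with a Cd274 read were compared with those without in the same mouse, both thinned to 10000 reads. Split on the thinned reads, there were 1270 and 1027 cells. Irf1, an interferon-induced transcription factor gene, was read in 64.3% and 55.5%, higher in 14 of 14 mice. Havcr2, the gene of TIM-3, was read in 28.4% and 18.9% (13 of 14), Pdcd1lg2 in 14.3% and 8.98% (12 of 14) and Cd86, the gene of a CD28 ligand, in 35.8% and 28.8% (10 of 14). Ifng, the gene of interferon gamma, was read in 14.9% and 12.6%, higher in 9 of 14 mice. When the cells were split on all their reads, at unequal depth, the differences were larger for Pdcd1lg2, at 14.2% and 5.31%, and for Ifng, at 15.8% and 8.28%, both in 14 of 14 mice. The same comparison in dendritic cells on thinned reads gave 40.9% and 23.2% for Cd86 (11 of 13 mice) and 21.6% and 9.26% for Pdcd1lg2 (12 of 13).

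Depth before thinning and doublet score moved with these splits. Macrophages and monocytes with a thinned Cd274 read had a median depth of 88699 reads and a doublet score over 0.5 in 56.2%, against 74683 reads and 42.8% without. T cell markers in them summed to 10.4 and 9.53 per 10000 reads. The comparisons were made over each class as a whole, and the clusters of a class differed in Cd274 and Pdcd1lg2, as given above. A split by read can thus also split clusters. How many of all genes were higher in as many mice is not given here. The part of depth, doublet score and cluster in the differences was not tested. In CD8 T cells the split by Pdcd1 could be made in only 3 mice, with 49 cells with and 47 without a thinned read. There Ctla4, another inhibitory receptor gene, was read in 86.8% and 71.7%, Lag3 in 68.7% and 61.4%, Havcr2 in 38.8% and 34.8%, and Tox, a factor of T cell exhaustion, in 35.9% and 24.2%. Of these, Lag3 was higher in 3 of 3 mice and the others in 2 of 3.

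The second question was whether the treatments moved the 3 genes. Reads were summed per mouse in 8 sets of cells: neutrophils, dendritic cells, monocytes with macrophages, NK cells, T cells, the CD8 and the regulatory ones among these, and all CD45+ cells. In each, 5 contrasts were fitted across all genes, of which the 3 against Control share the same 3 untreated mice. No gene of the 3 passed an adjusted p of 0.05 in any of the 120 tests (edgeR's quasi-likelihood test, Benjamini-Hochberg adjustment, smallest adjusted p = 0.417). The background was 1 call among 504345 gene tests, 0.000198%, made in T cells of the combination against Control (0.00798% of 12539 genes), so the count of 0 is no result about these genes. At an unadjusted p under 0.05 there were 15 of 120 member tests, 12.5%, and 5.24% over all genes. The sets of cells are nested and the contrasts share mice, so these 15 are not separate results, and the excess was not tested. DESeq2 called 2 of the 120. Its share of calls over all genes is not given here, so these 2 calls have no background beside them. A test of all 4 groups together and a test of whether the 2 agents added up, each in 24 combinations of gene and cells, also gave 0 calls by edgeR. At an unadjusted p under 0.05 they gave 3 and 1, and DESeq2 called 0 in each.

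In neutrophils, all 3 treated groups had higher Cd274 values than the untreated mice, without passing the test. The Control mice had 497, 456 and 423 CPM. The minP1 mice had 577, 817, 622 and 723, the anti-PD-L1 mice 1039, 918 and 640, and the combination mice 659, 685, 1030.4 and 1231. All 11 treated mice lay above all 3 untreated mice. In 9705 genes of at least 5 CPM, the same was true of 0.773%, and Control lay below all mice of the minP1, anti-PD-L1 and combination groups in 3.53%, 6.35% and 4.35%. The log2 difference from Control was 0.62 (SE 0.25) for minP1, 0.98 (SE 0.27) for anti-PD-L1 and 1.06 (SE 0.26) for the combination. The adjusted p was 0.672, 0.633 and 0.572 by edgeR's quasi-likelihood test with Benjamini-Hochberg adjustment, so none passed. DESeq2 put the anti-PD-L1 value past the threshold (0.92, adjusted p = 0.0492). The combination differed from minP1 alone by 0.43 and from the antibody alone by 0.08, and neither passed.

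Other properties of the neutrophils moved with the groups as well. The Control mice gave 13 to 26 neutrophils each and the treated mice 24 to 69. Median depth per neutrophil ran from 22309 to 51282 reads in Control, from 12002 to 32109.5 with minP1, from 13999 to 18531 with the antibody and from 12711 to 18143 with both. The doublet score was over 0.5 in 46.2 to 60.9% of Control neutrophils, and in 31.6 to 58.3%, 27.8 to 45.5% and 22.4 to 38.2% in the treated groups in that order. The 8 neutrophil markers summed to 7396 to 14483 CPM in Control and to 16763 to 21164, 12340 to 23019 and 19727 to 26235 in the treated groups. The 8 monocyte markers summed to 4221 to 4996 in Control and to 2487 to 3728, 3215 to 4409 and 3186 to 4673 in the treated groups. For the 8 T cell markers the ranges were 1612 to 1979 in Control and 1018 to 1688, 828 to 1690 and 714 to 1852. None of the neutrophil markers was at 0 in any mouse.

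Shares of neutrophils with a read did not follow the levels. A Cd274 read was found in 76.9, 78.3 and 69.2% of Control neutrophils, in 60.5 to 69.0% with minP1, in 60.0 to 75.0% with anti-PD-L1 and in 66.7 to 80.0% with both. At unequal depth, the highest minP1 share, 69.0%, lay just below the lowest Control share, 69.2%. How many of all genes lay likewise in this measure is not given here. In CPM the minP1 mice lay above the Control mice. The other treated groups overlapped Control in the share. Thinned to 10000 reads, the share was 61.9 to 76.2% in Control and 61.9 to 78.3% with minP1, and these groups overlapped. Thinning left 10 of 13, 21 of 23 and 21 of 26 neutrophils in the Control mice. In the minP1 mice it left 21 of 24, 23 of 35, 44 of 58 and 25 of 38, so the shallower cells are not covered. Without cells of high doublet score, Control mice had 1499 CPM (7 cells), 1032 (9 cells) and 664 (14 cells). The group means were then 1065 ± 418 in Control, 1049.96 ± 498 with minP1, 1569.5 ± 407 with the antibody and 1687 ± 817 with both, and the groups overlapped (exact permutation tests, two-sided, p = 0.971, 0.3 and 0.343). When each cell was given equal weight, the mean of log2(reads per 10000 + 1) was 1.93 ± 0.14 in Control, 2.09 ± 0.28 with minP1, 2.40 ± 0.26 with anti-PD-L1 and 2.38 ± 0.53 with both. The exact permutation p against Control was 0.1 for anti-PD-L1, the smallest that 3 against 3 mice allow, and 0.229 for the combination.

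**Figure D3:**
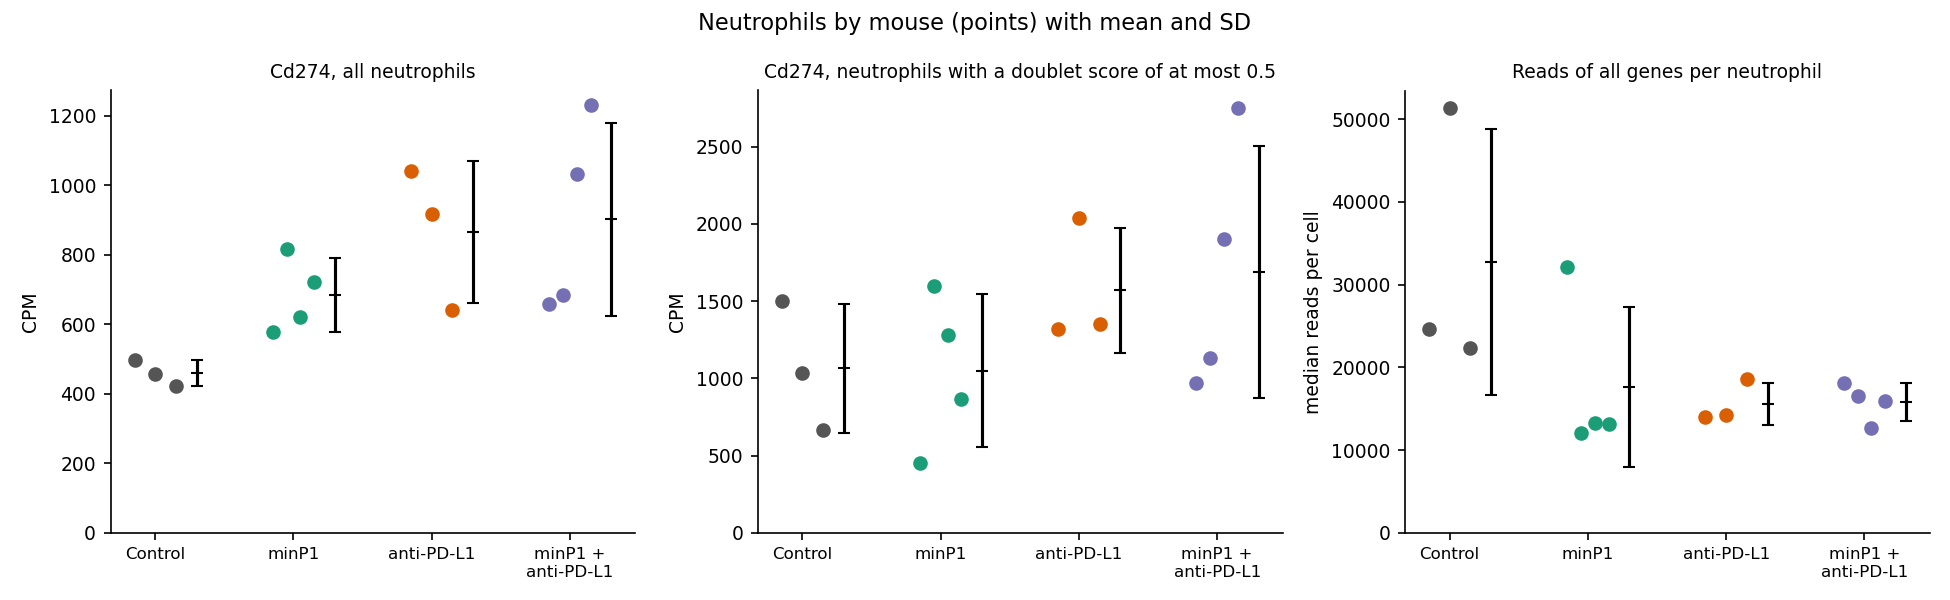
Neutrophils by mouse and treatment group: Cd274 in CPM over all neutrophils, Cd274 in CPM over neutrophils with a doublet score of at most 0.5, and median reads per neutrophil, with points for mice and the mean and SD. The Control mice, at 423 to 497 CPM, lie below all treated mice in the first panel, and overlap them in the second; the 2 groups given the antibody hold neutrophils of 12711 to 18531 median reads, below the Control mice, in the third.

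Neutrophils also held a larger part of each mouse's Cd274 reads in the antibody groups. The share was 5.16, 8.46 and 11.9% in Control, 12.8, 10.1, 12.5 and 9.38% with minP1, 19.8, 21.3 and 19.6% with anti-PD-L1, and 25.1, 12.2, 19.3 and 21% with both. Neutrophils were 2.69 to 5.19% of cells in Control, 4.26 to 8.01% with minP1, 8.28 to 11.6% with the antibody and 6.83 to 12.4% with both, so the share of reads holds their number as well as their level. The difference from Control was 11.8 percentage points for anti-PD-L1 (exact permutation p = 0.1, the smallest possible, adjusted over 5 pairs 0.167) and 10.9 for the combination (exact permutation p = 0.0571, adjusted 0.167). For minP1 it was 2.68 (exact permutation p = 0.229, adjusted 0.286). Every anti-PD-L1 and combination mouse lay above every Control mouse, so the number of mice sets the p of 0.1 and 0.0571. Their adjusted values of 0.167 thus cannot decide whether the share differed.

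In monocytes and macrophages, the largest source of Cd274 reads, the treated groups overlapped the Control group. Control mice had 285, 197 and 199 CPM, minP1 mice 169, 179, 258 and 186, anti-PD-L1 mice 174, 276 and 241, and combination mice 181, 257, 288 and 328. The log2 differences from Control were -0.19 (SE 0.22), 0.01 (SE 0.23) and 0.23 (SE 0.22), and none passed. In dendritic cells they were -0.16, 0.06 and 0.06, and in NK cells -0.13, 0.11 and 0.09. In T cells they were 0.50 (SE 0.21), 0.10 (SE 0.22) and 0.38 (SE 0.21), in regulatory T cells 0.60, 0.11 and 0.28, and in CD8 T cells 0.63, 0.15 and 0.88 with SEs of 0.83 to 0.88, none of which passed. Over all CD45+ cells the combination differed from Control by 0.66 (SE 0.26), with an adjusted p of 0.417 by edgeR's quasi-likelihood test with Benjamini-Hochberg adjustment. With the neutrophils left out it was 0.51 (SE 0.26), and did not pass either.

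In regulatory T cells, Pdcd1lg2 was lowest in the anti-PD-L1 mice. Control mice had 135, 72.2 and 60.4 CPM and anti-PD-L1 mice had 5.64, 9.11 and 12.4, with no overlap. Of 9867 genes, 5.08% were likewise lower in this contrast. The minP1 mice had 70.4, 32.3, 45.7 and 57.0 CPM and overlapped the Control mice. The combination mice had 20.3, 50.6, 84.2 and 11.4 and overlapped both the Control and the anti-PD-L1 mice. The log2 difference of anti-PD-L1 from Control was -3.26 (SE 0.77, adjusted p = 1 by edgeR's quasi-likelihood test with Benjamini-Hochberg adjustment, unadjusted 0.00045), and DESeq2 gave -3.26 with an adjusted p of 0.0292. The combination differed from the antibody alone by 2.15 (SE 0.72), and the test of whether the agents added up gave 2.94 (SE 0.95), each with an adjusted p of 1 by edgeR. A read was found in 15 to 16.3% of 40 to 59 Control cells per mouse and in 3.03 to 7.55% of 30 to 53 cells in the anti-PD-L1 mice, so that few cells set these levels. Macrophage markers summed to 141 to 156 CPM in the Control and 50.8 to 182 in the anti-PD-L1 regulatory T cells, and monocyte markers to 1020 to 1399 and 980 to 1725, and their part was not tested.

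Over all T cells, Pdcd1lg2 was 78.5, 50.8 and 41.1 CPM in Control, 28.2 to 40.2 with minP1 and 20.8 to 38.7 with anti-PD-L1, both below every Control mouse, as were 2.91% and 5.56% of 9827 genes. The combination mice had 15.4, 24.7, 59.6 and 7.48 and overlapped Control. In monocytes and macrophages, its main source, Control mice had 28.1, 34.3 and 34.5 CPM, minP1 mice 39.8, 29.6, 38.8 and 23.9, anti-PD-L1 mice 17.0, 38.9 and 37.6, and combination mice 33.3, 38.1, 54.5 and 80.4. The groups overlapped, and 2 combination mice lay above all others. The combination differed from Control by 0.69 on the log2 scale (SE 0.33), from minP1 by 0.66 (SE 0.30) and from the antibody by 0.76 (SE 0.33), and none passed. With the fourth combination mouse left out, the last 2 values were 0.34 and 0.44, and the last was 0.46 without the first anti-PD-L1 mouse and -0.36 without cells of high doublet score. In dendritic cells the differences from Control were -0.04, 0.43 and 0.37, and over all CD45+ cells -0.07, -0.14 and 0.39.

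**Figure D4:**
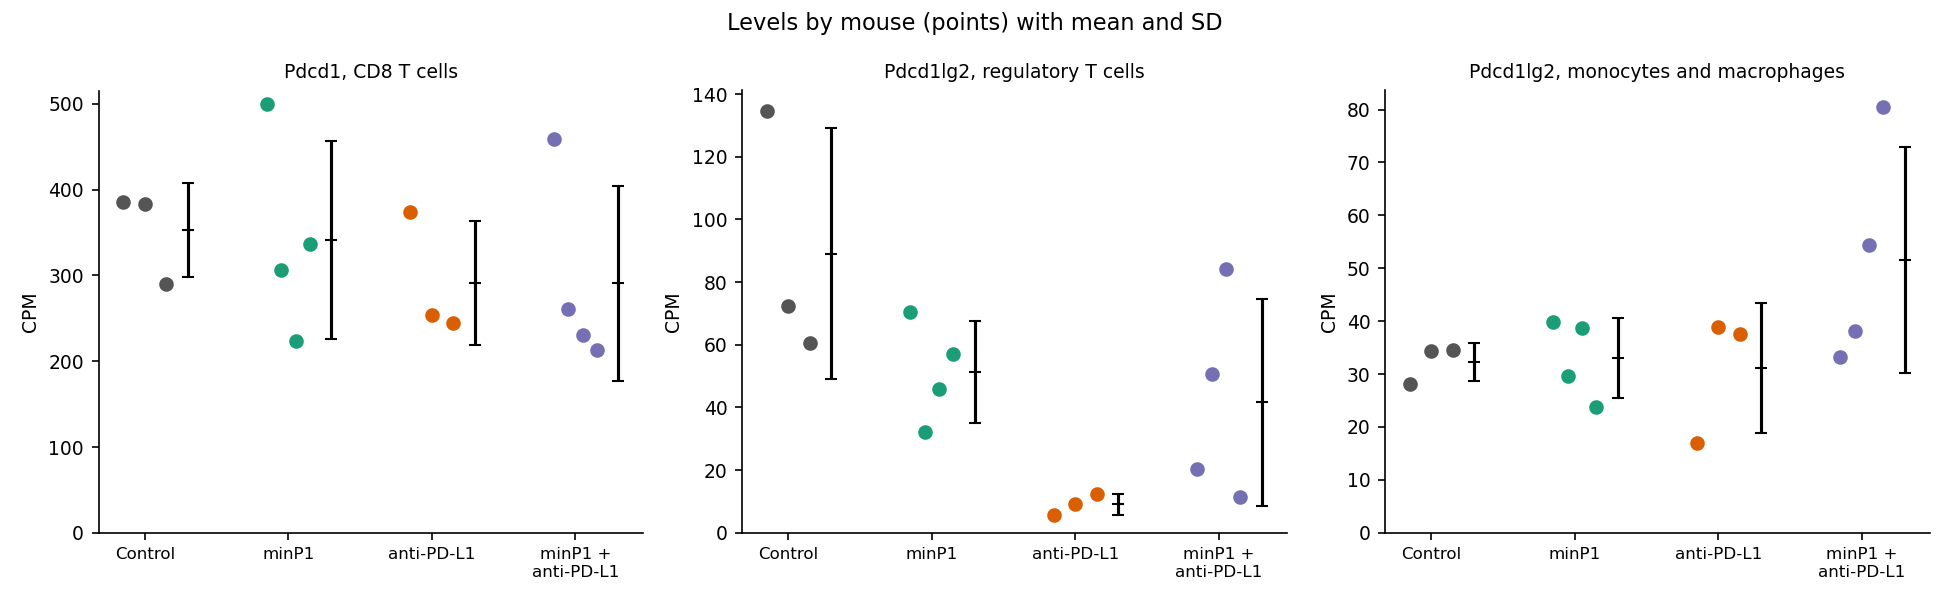
CPM by mouse and treatment group, with the mean and SD, for Pdcd1 in CD8 T cells, Pdcd1lg2 in regulatory T cells and Pdcd1lg2 in monocytes and macrophages. The groups overlap in the first and last panel, and the anti-PD-L1 mice, at 5.64 to 12.4 CPM, lie below the Control mice in the middle panel.

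Pdcd1 in CD8 T cells did not separate the groups. Control mice had 386, 383 and 290.4 CPM, minP1 mice 499.5, 306.6, 224 and 337, anti-PD-L1 mice 374, 254 and 245, and combination mice 459, 261, 231 and 213. The log2 differences from Control were -0.05 (SE 0.31), -0.26 (SE 0.33) and -0.28 (SE 0.31), each with an adjusted p of 1 by edgeR's quasi-likelihood test with Benjamini-Hochberg adjustment. A read was found in 60.0 to 89.5% of Control cells, in 57.9 to 91.7% with minP1, in 60.0 to 73.3% with anti-PD-L1 and in 54.5 to 77.8% with both. Each mouse had 11 to 38 CD8 T cells. Over all CD45+ cells the differences were -0.14, -0.11 and -0.15.

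Pdcd1 was also lower in some treated groups in neutrophils and dendritic cells, where its levels were low. In neutrophils Control mice had 36.8, 118 and 36.6 CPM, anti-PD-L1 mice 0, 29.6 and 14.96 and combination mice 9.83, 3.02, 9.60 and 1.19, below every Control mouse, as were 5.35% and 3.92% of genes. In dendritic cells Control mice had 60.8, 10.3 and 58.3 and minP1 mice 8.25, 10.5, 7.94 and 6.66, a log2 difference of -2.39 (SE 0.84, adjusted p = 1 by edgeR's quasi-likelihood test with Benjamini-Hochberg adjustment). It was -0.38 without cells of high doublet score. Without cells of high doublet score, 1 of 367 neutrophils had a Pdcd1 read, too few to give a difference between groups.

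Shares of cells with a read were tested in the same 120 combinations of gene, cells and contrast. The smallest exact permutation p was 0.0571, and 0.807 after Benjamini-Hochberg adjustment over the 120. Full separation of the groups gives a p of 0.1 with 3 against 3 mice and 0.0571 with 4 against 3. Only the combination against minP1, with 4 against 4 mice, allows a smaller p. With so few mice the adjustment over 120 tests leaves no room to pass. These tests therefore cannot decide whether the shares differed.

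**Figure D5:**
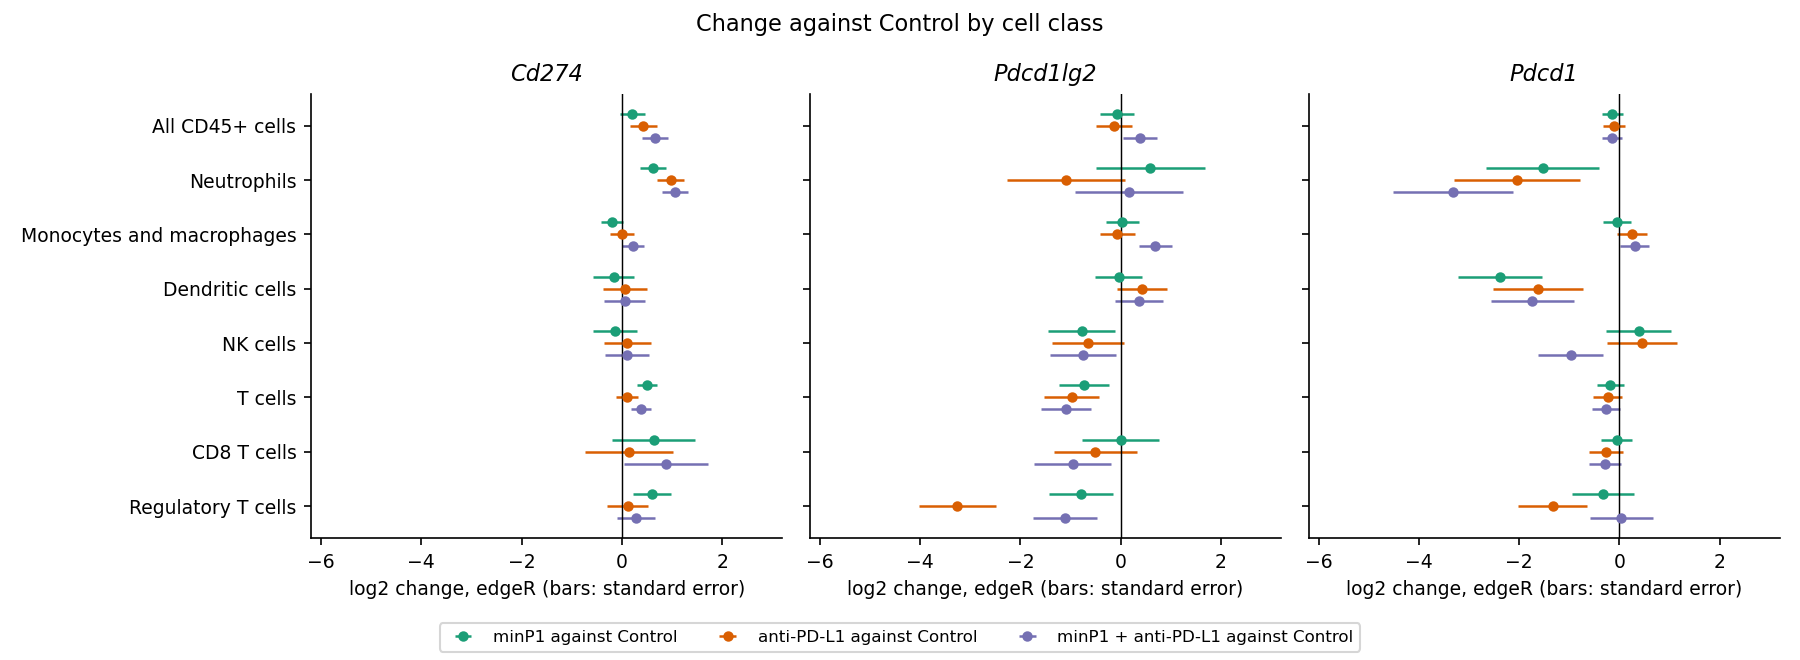
Log2 difference from Control, with its SE, for each gene, set of cells and treatment, from the edgeR fits. Cd274 in neutrophils lies above 0 in all 3 treatments, Pdcd1lg2 in regulatory T cells with anti-PD-L1 lies at -3.26, and no value passed the adjusted threshold.

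The surrounding pathway was read through 4 lists: 14 genes of PD-1 signalling, 21 of ligand induction, 21 of other inhibitory receptors and exhaustion factors, and 13 measured genes of other B7 ligands and checkpoint ligands. Over all cells and contrasts 2475 gene tests were made, and 0 rose and 0 fell by edgeR's quasi-likelihood test with Benjamini-Hochberg adjustment. Over all CD45+ cells the combination lay above Control in 15 of 21 ligand induction genes with a median log2 difference of 0.20, in 17 of 21 inhibitory receptor genes with 0.25, in 10 of 14 PD-1 signalling genes with 0.26 and in 7 of 13 B7 genes with 0.07, and the median over all genes tested was 0.0057. Among the genes of small p in this contrast were Vsir, the gene of the checkpoint protein VISTA, at 0.49 (SE 0.13, adjusted p = 0.320 by edgeR), and Tigit, an inhibitory receptor gene of T and NK cells, at 0.71 (SE 0.22, adjusted p = 0.364 by edgeR).

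In neutrophils, 17 ligand induction genes were tested. Those above Control were 13 with minP1, 14 with anti-PD-L1 and 15 with both, with medians of 0.33, 0.37 and 0.31, and the medians over all genes were 0.05, 0.02 and 0.05. The other lists did not share this lean: of 14 PD-1 signalling genes 4 were above Control in each treatment, with medians of -0.41, -0.27 and -0.28, of 8 B7 genes 2, 4 and 2, and of 20 inhibitory receptor genes 11 in each. Tnf, the gene of the inflammatory cytokine, had 1.68 with anti-PD-L1 (SE 0.51, adjusted p = 0.654 by edgeR) and Irf1 0.81 with the combination (SE 0.31, adjusted p = 0.696 by edgeR). In CD8 T cells, 19 inhibitory receptor and exhaustion genes were tested, with 9, 11 and 13 above Control and medians of -0.25, 0.10 and 0.16 for the 3 treatments in the same order. Of 20 ligand induction genes 6, 7 and 9 were above Control there, with medians of -0.26, -0.26 and -0.14, and of 13 PD-1 signalling genes 9, 7 and 9. Nr4a2, a nuclear receptor gene induced by antigen receptor signals, had -0.88, -0.77 and -1.35, the last with an SE of 0.23 and an adjusted p of 0.151 by edgeR. Havcr2 had 1.54 with the combination (SE 0.42, adjusted p = 1 by edgeR). Lag3 differed from Control by 0.12, 0.10 and 0.16, Ctla4 by 0.14, 0.34 and 0.15, Tox by -0.44, -0.37 and -0.73, and Ifng by -0.66, -0.86 and -0.88, none of which passed. Cd80, a B7 ligand that also binds PD-L1 on the same cell, had -1.66 in dendritic cells with the combination (SE 0.44, adjusted p = 0.812 by edgeR).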

How the data were processed

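CD45+ tumour cells of 14 hashtagged mice were sequenced with the BD Rhapsody system. The values are raw counts of reads per gene and barcode, deposited as whole numbers, which the authors made with cutadapt 2.10 and Bowtie2 2.3.4.1 on mm10, per the submitters' processing notes, which also name Seurat 2.3.4. Mice were told apart by column prefix per the labels, and 147 columns of doublets and barcodes without a hashtag were not used. Whether strand was used in counting is not given in the sources used here.

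Cells with over 25% mitochondrial reads were removed, and none had under 200 genes. Clusters came from scanpy 1.11.5 (2000 variable genes, 30 principal components, 20 neighbours, Leiden resolution 1, seed 0) without the 3 genes. Classes needed at least 10 cells in a mouse. Thinning to 10000 reads left out 605 shallower cells, 7.82%. Counts summed per mouse were fitted with edgeR 4.0.16 (TMM, filterByExpr, quasi-likelihood test, Benjamini-Hochberg over all genes) in R 4.3.3, and the code was tested on simulated data. DESeq2 1.42.0 was an alternative. Levels between clusters used log2(CPM + 1) and sign flips over mice. The fold changes are on the log2 scale. Other alternatives were another clustering resolution, clustering with the 3 genes, leaving out each mouse, cells of high doublet score or non-immune clusters, other minimums and pseudocounts, a replicate block, and, added after the data were seen, cells split on thinned reads and all cells without neutrophils. Replicate numbers in the labels are shared between groups and were not taken as a pairing, though whether they pair the mice is not settled.

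The text names the 3 genes, list genes past the threshold or else those of smallest p, 8 checkpoint and interferon genes always, and the 5 genes of most like pattern; 1 gene under this rule is not reported here. The 3 genes and the lists were chosen with earlier results of these data known.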

Additional observations from a re-analysis of the deposited data

Results flagged for a closer look

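Of 48 sets of 4 mice (3 genes, 8 sets of cells and the minP1 and combination groups), 4 held a mouse far from the other 3 by Dixon's 95% criterion for 4 values; chance alone marks about 1 in 20 such sets. Cd274 in T cells of the combination group was lowest in mouse 2 at 124 CPM, with the others at 140 to 142. Cd274 in NK cells of the combination group was lowest in mouse 1 at 32.3 CPM, with the others at 114 to 127. Pdcd1 in T cells of the minP1 group was highest in mouse 4 at 232 CPM, with the others at 137 to 149. Pdcd1 in monocytes and macrophages of the minP1 group was highest in mouse 1 at 36.1 CPM, with the others at 18.6 to 20.3.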

How the results depend on the processing

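Over 32 results and 544 alternatives, 522 kept direction and side of the threshold. DESeq2 called 2 of the 120 tests where edgeR called 0, and at resolution 0.5 the Pdcd1lg2 order had 1 neighbouring pair past the test where the chosen clusters had 0; the cause was not tested. Values that changed sign were all of differences that had not passed: Cd274 in all CD45+ cells, minP1, -0.00030 without the non-immune clusters; Cd274 in monocytes and macrophages, anti-PD-L1, -0.0295 with the replicate block, -0.38 without high doublet scores and -0.0086 with the 3 genes clustered; Pdcd1 in CD8 T cells, 0.11 for minP1 without high doublet scores and 0.18 for anti-PD-L1 with at least 20 cells; Pdcd1lg2 in monocytes and macrophages, combination against antibody, -0.36 without high doublet scores; and the share of neutrophils with at least 5 Cd274 reads, anti-PD-L1, 2.14 percentage points. With each mouse left out, ranges that crossed 0 were -0.35 to 0.00017 (Cd274, monocytes and macrophages, minP1), -0.15 to 0.20 (the same, anti-PD-L1), -0.30 to 0.097 (Pdcd1, CD8 T cells, minP1) and -12.2 to 2.56 percentage points (share of CD8 T cells with Pdcd1, anti-PD-L1), and the counts of calls stayed at 0. Cd274 in neutrophils ranged over 0.49 to 0.69, 0.83 to 1.18 and 0.87 to 1.19 with a mouse left out, and over 0.54 to 1.01, 0.92 to 1.67 and 0.95 to 1.71 under the other settings, some of which left a single Control mouse with enough neutrophils. Of 19 same-numbered pairs of mice, 9 correlated over 0.1 (-0.148 to 0.453, median 0.080), among them all pairs of the mice numbered 1. Of 54 pairs with different numbers, 8 correlated over 0.1, with a median of -0.023. In all, 6 of 14 mice correlated best with their own number. Whether the numbers pair the mice is thus not settled, and they were not taken as a pairing. The replicate block gave 0 calls and neutrophil Cd274 values of 0.54, 0.98 and 0.95. Thinning to 10000 reads brought the share of cells with a read from 48.7% to 38.0% for Cd274, from 12.1% to 8.67% for Pdcd1lg2 and from 11.02% to 8.39% for Pdcd1, so depth limits each of these shares.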
